A study of Mus musculus with 2 samples.

Results

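Yap1, Wwtr1, Tead1, Lats1, Lats2, Ccn1, Ccn2, Ankrd1 and Amotl2 are core genes and widely used target genes of the Hippo pathway. These 9 genes were picked by symbol from the 32285 genes listed in both libraries, and all 9 had unique molecular identifiers (UMIs, each marking 1 captured RNA molecule) in both libraries. They were measured by droplet-based single-cell RNA sequencing with 3' chemistry in 2 libraries, 1 per genotype, from livers of mice. The WT library came from a pool of 3 livers of wild-type littermates. The HKO library came from a pool of 3 livers of miR-33 HKO mice, whose loxP-flanked miR-33 is removed by a Cre recombinase that the labels give as AlbCRE, so that the albumin promoter directs the deletion to hepatocytes. Both groups were male mice, 8 weeks old when CD-HFD feeding (a choline-deficient diet rich in fat) was started, and both received it for 6 months. Equal numbers of isolated hepatocytes and of sorted non-parenchymal cells were combined for each library, so the shares of cell types do not estimate the tissue.

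The Hippo pathway is a kinase chain that restrains growth. When it is active, the kinases LATS1 and LATS2 phosphorylate the coactivators YAP (from Yap1) and TAZ (from Wwtr1), which then stay in the cytoplasm. When it is inactive, YAP and TAZ enter the nucleus and bind TEAD transcription factors such as TEAD1. Ccn1 and Ccn2, which encode secreted matricellular proteins, Ankrd1, which encodes an ankyrin repeat protein, and Amotl2, which encodes an angiomotin that binds YAP, are often read as their output. In liver the pathway is known for setting organ size and biliary fate, and TAZ in hepatocytes has been linked to steatohepatitis. Because YAP and TAZ are controlled mainly through phosphorylation and location, RNA counts show the amounts of their transcripts and not their activity.

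The promoters are shown first because the target genes are defined by TEAD binding. The RefSeq table for GRCm38.p6 held a promoter, 250 bases before to 50 bases after a start site, for 7 of the 9 genes, and it had no entry for Tead1 and Ccn2. The TEAD motif searched was GGAATG on both strands, and it was found for Yap1, Wwtr1, Lats2, Ccn1, Ankrd1 and Amotl2 but not for Lats1. Of all 27025 genes with a promoter, 16.6% held it. The motif TGANTCA, which AP-1 factors bind, was found in 0 of the 7, and 8.97% of all genes held it. The CArG box, which SRF binds, was found in 0 of the 7 and in 1.81% of all genes. In the windows below the TEAD motif is in capitals (CATTCC is the same motif read from the other strand), each window is written along the strand of its gene, and the first motif base lies 141 bases before the start site for Yap1, 170 or 136 for Wwtr1 depending on the start site, 210 and 123 for Ankrd1 and 65 for Amotl2. For Lats2 the motif starts at base 5 of the transcript. A match describes the letters and does not show that a factor binds there.
Yap1, chr9:8004720-8004749, minus strand: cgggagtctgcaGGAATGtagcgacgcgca
Wwtr1, chr3:57576029-57576058, minus strand: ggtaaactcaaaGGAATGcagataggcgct
Lats2, chr14:57746102-57746131, minus strand: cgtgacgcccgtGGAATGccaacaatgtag
Ankrd1, chr19:36120037-36120066, minus strand: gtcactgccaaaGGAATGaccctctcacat
Ankrd1, chr19:36119950-36119979, minus strand: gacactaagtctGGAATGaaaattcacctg
Amotl2, chr9:102717727-102717756, plus strand: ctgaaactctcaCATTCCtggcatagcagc

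The Ccn1 promoter is given in full up to its start site because Ccn1 had the largest change of the well-counted members in hepatocytes. Its single TEAD motif, in capitals, starts 103 bases before the start site.
Ccn1, chr3:145649986-145650235, minus strand: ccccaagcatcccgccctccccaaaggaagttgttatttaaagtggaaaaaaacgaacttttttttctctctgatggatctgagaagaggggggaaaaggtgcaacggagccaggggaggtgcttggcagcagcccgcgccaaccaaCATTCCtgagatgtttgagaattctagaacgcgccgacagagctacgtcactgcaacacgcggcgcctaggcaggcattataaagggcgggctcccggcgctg

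Because miR-33 is deleted in hepatocytes of HKO mice, the 3' untranslated regions of the members were also searched for matches to its seed, bases 2 to 8, shown in capitals in the mature sequence (RefSeq, GRCm38.p6, chr15:82198127-82198147, plus strand). No member had a full match to the seed in an annotated 3' untranslated region (GENCODE M21, GRCm38), whereas 7.61% of 21024 genes had one. Ankrd1 had a weaker match, to bases 2 to 7 followed by an A, which 15.8% of genes had at this or a stronger level. It lies near the distal end of its 3' untranslated region.
miR-33-5p: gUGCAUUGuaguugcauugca
Ankrd1 site, chr19:36111966-36111991, minus strand: atttataataAATGCAAactaattct

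The members lie apart in the genome, except for Yap1 (chr9:7931999-8004596, minus strand) and Amotl2 (chr9:102716672-102733418, plus strand), which share a chromosome at a distance, as do Wwtr1 (chr3:57455649-57575910, minus strand) with Ccn1 (chr3:145646976-145649981, minus strand) and Lats1 (chr10:7681214-7716460, plus strand) with Ccn2 (chr10:24595442-24598683, plus strand). Tead1 lies at chr7:112679318-112906807 on the plus strand, Lats2 at chr14:57689662-57758388 on the minus strand and Ankrd1 at chr19:36111961-36120099 on the minus strand. Gm44462 overlaps Tead1 and Gm49361 overlaps Lats2 on the same strand, and how reads there were assigned is not given in the sources used here.

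The WT library held 130451427 UMIs in 30078 barcodes (median 2658) and the HKO library 52563185 UMIs in 20000 barcodes (median 1130). After filters 29620 and 18247 barcodes were kept, and most of them, 26510 and 12266, had the depth of droplets that hold free RNA. Barcodes that libraries share could not be counted, because the barcode sequences of WT were not analysed here. With 1 library per genotype there is no replicate spread and no test was made. Every interval below is at 95% and covers counting error only, not differences between livers or preparations. The gene table has no entry for Mir33, and the counts thus hold no check of the deletion. Its host gene Srebf2 stood at 24.9 CPM (WT) and 20.1 CPM (HKO) in hepatocyte-like barcodes, where CPM counts the UMIs of a gene among 1000000 UMIs of the class.

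Classes were named from marker genes, and the members were left out of the genes used for clustering. The hepatocyte-like class, limited to barcodes of 5000 UMIs or more, held 2042 barcodes of WT and 1654 of HKO, with medians of 19450 and 10718 UMIs per barcode. All 10 hepatocyte markers, among them Alb and Hnf4a, were read in them, at a sum of 82126 and 70964 CPM. There were 64 and 149 endothelial-like, 23 and 60 stellate-like, 13 and 27 cholangiocyte-like and 31 and 132 macrophage-like barcodes. All 12 endothelial markers had UMIs in endothelial-like barcodes, all 12 stellate markers in stellate-like and all 9 cholangiocyte markers in cholangiocyte-like barcodes. A further 22 and 84 barcodes carried endothelial and stellate markers together. Their macrophage markers were also present, 13 of 13 with a sum of 5037 and 6444 CPM, so they are not a pure source of either cell type. Stellate-like barcodes were shallow (median 3579 and 1395 UMIs) and carried Alb at 35409 and 22617 CPM, beside 36649 and 27856 CPM in hepatocyte-like barcodes, so their counts cannot be assigned to stellate cells alone.

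Within hepatocyte-like barcodes, Ccn1 was lower in HKO, while the kinases, coactivators, Tead1 and Amotl2 had ratios from 0.859 to 1.17. Ccn1 had 5070 UMIs in WT and 983 in HKO, or 101 CPM (98.3 to 104) and 47.1 CPM (44.2 to 50.1), a ratio of HKO over WT of 0.466 (0.435 to 0.499). Ccn2 was close to absent from hepatocytes, with 41 and 6 UMIs, or 0.817 and 0.287 CPM, and a ratio of 0.352 (0.122 to 0.833). Of the 9 members, 2 were at least 1.5-fold lower in HKO, Ccn1 and Ccn2, beside 9.02% of 13923 genes with at least 20 UMIs. The only member at least 1.5-fold higher was Ankrd1, beside 8.43% of genes, and its 13 and 9 UMIs gave a ratio of 1.66 (0.627 to 4.21). Of the 9 HKO UMIs of Ankrd1, 7 lay in 1 barcode, and without the highest barcode of each library the ratio was 0.437. The median log2 ratio was -0.08 over the 9 members and -0.00 over all genes.

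**Figure D1:**
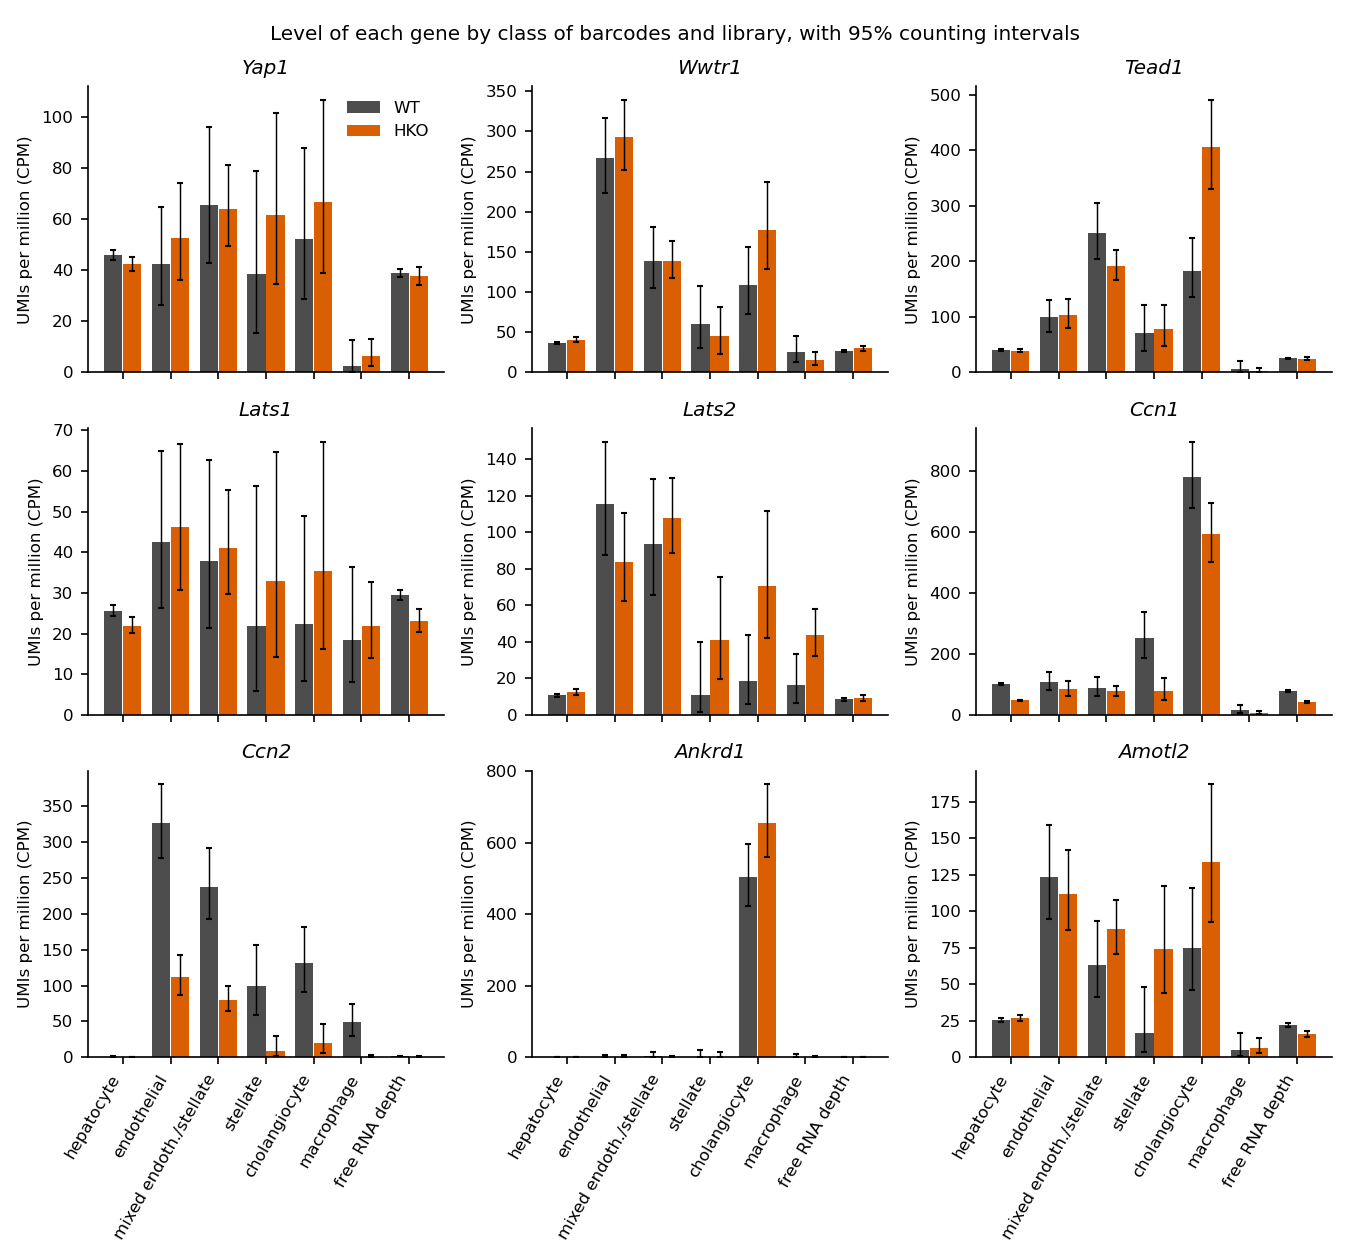
Level of each of the 9 genes in CPM (vertical axis, each panel from 0 with its own scale) in classes of barcodes of the WT (grey) and HKO (orange) libraries, with 95% Poisson intervals that cover counting error only. Ankrd1 stands at 505 and 656 CPM in cholangiocyte-like barcodes and near 0 elsewhere, Ccn2 is highest in endothelial-like barcodes, and the hepatocyte bars of Ccn1 stand at 101 CPM in WT and 47.1 CPM in HKO.

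The coactivators differed in opposite directions by small amounts in hepatocyte-like barcodes. Yap1 stood at 46.0 CPM in WT against 42.4 CPM in HKO (ratio 0.920, 0.851 to 0.995). Wwtr1 had 36.6 and 40.9 CPM (ratio 1.12, 1.03 to 1.21). Both intervals end close to 1, and a difference of this size between pools of livers cannot be set against any replicate. Tead1 had 40.7 and 38.5 CPM (ratio 0.948, 0.873 to 1.03). Of the kinases, Lats1 had 25.6 and 22.0 CPM (ratio 0.859, 0.770 to 0.956), and Lats2, which is itself a YAP target, had 10.7 and 12.5 CPM (ratio 1.17, 1.01 to 1.36). Amotl2 had 25.6 and 26.7 CPM (ratio 1.04, 0.943 to 1.15), so this target did not follow Ccn1.

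The lower Ccn1 was present at each depth of hepatocyte-like barcodes. In barcodes with 5000 to below 10000 UMIs its level was 76.2 CPM in WT against 44.9 CPM in HKO (ratio 0.590, 0.495 to 0.701). From 10000 to below 20000 UMIs it had 98.1 and 49.2 CPM (ratio 0.502, 0.446 to 0.564), and with 20000 or more it had 104 and 45.5 CPM (ratio 0.437, 0.384 to 0.495). The WT level was higher in deeper barcodes, whereas the HKO level lay within 44.9 to 49.2 CPM. The ratio of Wwtr1 was also lower in deeper barcodes. It was 1.86 (1.47 to 2.37) in the shallowest of these ranges, 1.19 (1.02 to 1.40) in the middle one and 0.860 (0.735 to 1.00) in the deepest, and Lats2 went from 1.81 (1.19 to 2.81) to 1.11 and 1.01. Tead1 had a ratio of 1.37 (1.10 to 1.71) in the shallowest range, 0.730 (0.629 to 0.847) in the middle one and 0.911 (0.784 to 1.05) in the deepest, and Yap1 had 1.05 (0.857 to 1.28), 0.835 (0.727 to 0.961) and 0.803 (0.692 to 0.928). The ratios of Yap1, Wwtr1, Tead1 and Lats2 over all hepatocyte-like barcodes thus average over depths at which they differ. A range of UMIs need not hold the same share of free RNA in both libraries. Most barcodes were of free RNA depth, and the commonest value was 2570 UMIs for WT but 813 for HKO. The shallowest range also starts below the WT limit of free RNA depth, 5141 UMIs. The part of free RNA in these trends with depth was not tested.

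As shares of barcodes, 1267 of 2042 WT hepatocyte-like barcodes (62%) and 475 of 1654 in HKO (28.7%) had a Ccn1 UMI, and no 10 barcodes held more than 11.1% of its UMIs in a library. After every barcode was thinned to 5000 UMIs, the shares were 33.7% (31.7 to 35.8) and 17.0% (15.3 to 19.0). Thinned shares of Yap1 were 20.4% and 17.5%, of Wwtr1 15.6% and 17.5%, of Tead1 16.8% and 16.4%, of Lats1 12% and 11.0% and of Amotl2 11.7% and 11.2%. For these 5 genes the intervals of both libraries overlapped, and for Ccn1 they did not. T and NK-like barcodes, which should lack Ccn1, gave its background. Thinned to 1000 UMIs, 3.74% of them in WT and 1.38% in HKO had a Ccn1 UMI, against 9.21% and 4.47% of hepatocyte-like barcodes, and their full median depths were 5793 and 2215 UMIs.

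The hepatocyte-like barcodes fell into clusters that differed in the level of Yap1, Wwtr1 and Tead1. The cluster with Neat1 and Hnf4aos among its leading genes, with 697 WT and 512 HKO barcodes, had 72.8 and 81.6 CPM of Yap1, 63.9 and 82.8 CPM of Wwtr1 and 80.0 and 79.1 CPM of Tead1. The cluster marked by A2ml1 and Slc10a1, with 737 and 998 barcodes, had 34.0 and 31.2 CPM of Yap1, 26.4 and 28.4 CPM of Wwtr1 and 24.9 and 27.2 CPM of Tead1. All 3 genes were thus higher in the Neat1 cluster in both libraries. Amotl2 had the opposite order, with 23.3 and 20.2 CPM in the Neat1 cluster and 31.6 and 30.2 CPM in the A2ml1 cluster.

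Ccn1 was lower in HKO within each cluster that had at least 50 barcodes of both libraries. It had 155 and 86.6 CPM in the Neat1 cluster (ratio 0.558, 0.503 to 0.618) and 70.3 and 36.1 CPM in the A2ml1 cluster (ratio 0.514, 0.465 to 0.568). In the small cluster led by Gsta1 and Mt1 it had 38.1 and 15.2 CPM (ratio 0.398, 0.211 to 0.723), and Yap1 there had 30 and 14 UMIs (ratio 0.415, 0.204 to 0.808). A cluster marked by Tsku and C4b held 256 WT and 2 HKO barcodes and had 96.4 CPM of Ccn1 in WT, so nearly all of it is WT. The clusters with AY036118 among their 10 leading genes gave 36, 32, 16, 81, 19 and 33 hepatocyte-like barcodes of WT. They gave 0, 0, 1, 0, 0 and 0 of HKO, so these WT barcodes also have nearly no counterpart. Over all depths the WT medians of these clusters were 1424 to 2666 UMIs, so most of their barcodes had free RNA depth.

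**Figure D2:**
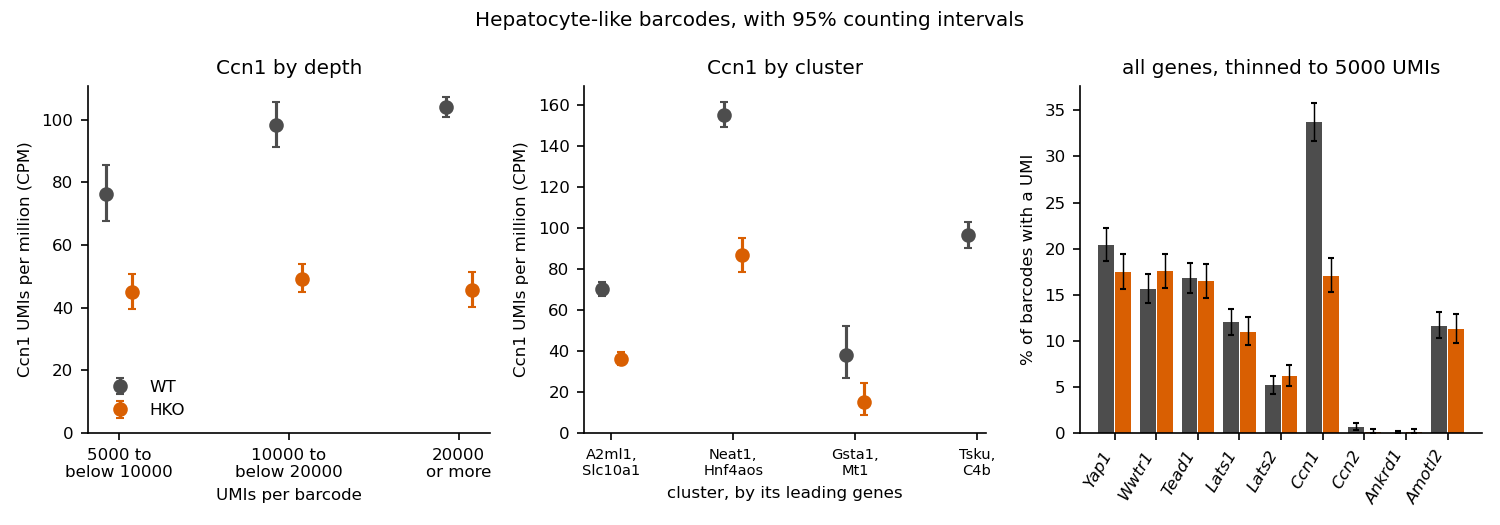
Hepatocyte-like barcodes of WT (grey) and HKO (orange) with 95% counting intervals. Left, Ccn1 CPM by UMIs per barcode; middle, Ccn1 CPM by cluster, each named by 2 of its 10 leading genes (the Tsku cluster is shown for WT only); right, the percent of barcodes with a UMI of each gene after thinning to 5000 UMIs, where Ccn1 stands at 33.7% in WT and 17.0% in HKO.

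Markers of other cells were also read in hepatocyte-like barcodes. Those of monocytes and dendritic cells summed to 213 CPM in WT and 127 CPM in HKO, and those of macrophages to 25.8 and 14.5 CPM. Stellate markers (24.1 and 23.4 CPM) and T and NK markers (22.8 and 22.2 CPM) differed less. The part of these cells in the Ccn1 ratio was not tested. Of 12 endothelial markers 12 had UMIs in hepatocyte-like barcodes, with a sum of 39.8 CPM in WT and 42.9 CPM in HKO, which is 0.361% and 0.317% of their sum in endothelial-like barcodes. At those percentages endothelial RNA would carry 1.18 and 0.355 CPM of Ccn2, beside the 0.817 and 0.287 CPM read in hepatocyte-like barcodes, so hepatocyte expression of Ccn2 cannot be told apart from RNA of endothelial cells. Of 9 cholangiocyte markers 5 had UMIs, with a sum of 154 and 110 CPM. Ankrd1 was read at 0.259 and 0.431 CPM there, against 7.62 and 4.94 CPM if that sum were all cholangiocyte RNA, and the marker Pkhd1 was among the genes that set the Neat1 cluster apart, so this sum does not measure cholangiocyte RNA in hepatocyte-like barcodes.

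Among all classes the level of Ccn2 was highest in endothelial-like barcodes, and it was lower there in HKO. These barcodes held 28.5% of its UMIs of kept barcodes in WT and 31.1% in HKO, the mixed endothelial and stellate barcodes 16.6% and 38.4%, and hepatocyte-like barcodes 7.26% and 2.74%. Endothelial-like barcodes had 161 UMIs of Ccn2 in WT and 68 in HKO, or 326 CPM (278 to 380) and 112 CPM (87.0 to 142), a ratio of 0.343 (0.255 to 0.459). These levels were 399-fold (282 to 577) and 390-fold (170 to 1099) those of hepatocyte-like barcodes. A UMI of Ccn2 was found in 20 of 64 WT and 24 of 149 HKO endothelial-like barcodes, and thinned to 1000 UMIs in 17.2% (8.90 to 28.7) and 4.70% (1.91 to 9.44). It was found in 0 of 187 and 0 of 727 of the thinned T and NK-like barcodes. At full depth those barcodes held 10 UMIs of Ccn2 in WT (8.64 CPM) and 0 in HKO. Barcodes of free RNA depth had 108 and 7 UMIs, or 1.56 and 0.581 CPM (ratio 0.372, 0.146 to 0.794). The highest endothelial-like barcodes held 27 of the 161 and 23 of the 68 UMIs, and without them the ratio was 0.269. The ratio lay between 0.269 and 0.415 in all 9 alternatives tried. In the same barcodes the sum of the 12 endothelial markers was 11046 CPM in WT and 13525 CPM in HKO and that of 10 hepatocyte markers 28591 and 15613 CPM. The sum of 12 stellate markers was 458 and 562 CPM (3 and 1 of them at 0), that of 6 smooth muscle markers 83.0 and 26.3 CPM (5 at 0 in both libraries) and that of 13 T and NK markers 12.1 and 125 CPM (8 and 0 at 0). Markers of B and plasma cells summed to 130 and 23.1 CPM (1 and 4 of 9 at 0) and those of cholangiocytes to 46.6 and 21.4 CPM (6 of 9 at 0 in both libraries). Sums of macrophage, mesothelial and neutrophil markers were higher in HKO. Smooth muscle, hepatocyte, B and plasma and cholangiocyte markers were thus lower in HKO, like Ccn2. Their part in its ratio was not tested beyond the subtraction of free RNA, which left the ratio at 0.344.

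The other members did not share this difference in endothelial-like barcodes. Of 8 members with at least 20 UMIs, 1 was at least 1.5-fold lower in HKO, Ccn2, beside 16.1% of 7398 genes, and 0 were higher, beside 14.9%. Wwtr1 had 132 and 178 UMIs, or 267 and 293 CPM (ratio 1.10, 0.871 to 1.38), and Yap1 had 42.5 and 52.7 CPM (ratio 1.24, 0.693 to 2.26). Tead1 had 99.2 and 104 CPM (ratio 1.05, 0.708 to 1.55). Ccn1 had 107 and 84.0 CPM (ratio 0.783, 0.522 to 1.17), which does not differ beyond counting error. Lats2 had 115 and 84.0 CPM (ratio 0.728, 0.489 to 1.08) and Amotl2 124 and 112 CPM (ratio 0.907, 0.632 to 1.3). Ankrd1 had 0 UMIs in endothelial-like barcodes of both libraries. The median log2 ratio of the members was -0.04, and that of all genes 0.04.

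Set against hepatocytes within a library, endothelial-like barcodes had more Wwtr1, Tead1, Lats2 and Amotl2, and for Yap1 no difference beyond counting error was detectable. In WT, 5 of 8 members with at least 20 UMIs were at least 2-fold above hepatocyte-like barcodes, beside 35.2% of genes, and in HKO 6 of 8, beside 38% of genes. The ratio of Wwtr1 was 7.30 (6.07 to 8.71) in WT and 7.17 (6.06 to 8.43) in HKO, whereas that of Yap1 was 0.923 (0.571 to 1.41) and 1.24 (0.845 to 1.77). Lats2 was 10.8-fold (8.09 to 14.2) and 6.72-fold (4.88 to 9.10) higher, Amotl2 4.83-fold and 4.20-fold and Tead1 2.44-fold and 2.69-fold. Lats1 was 1.66-fold (1.02 to 2.55) and 2.10-fold (1.38 to 3.07) higher, and in HKO this made it the sixth member above 2-fold. Subtracting free RNA, scaled by Alb, left the ratios of Wwtr1 at 7.03 and 7.0, and gave 0.615 and 1.04 for Yap1 and 1.24 and 1.86 for Lats1, which was then under 2-fold in HKO.

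**Figure D3:**
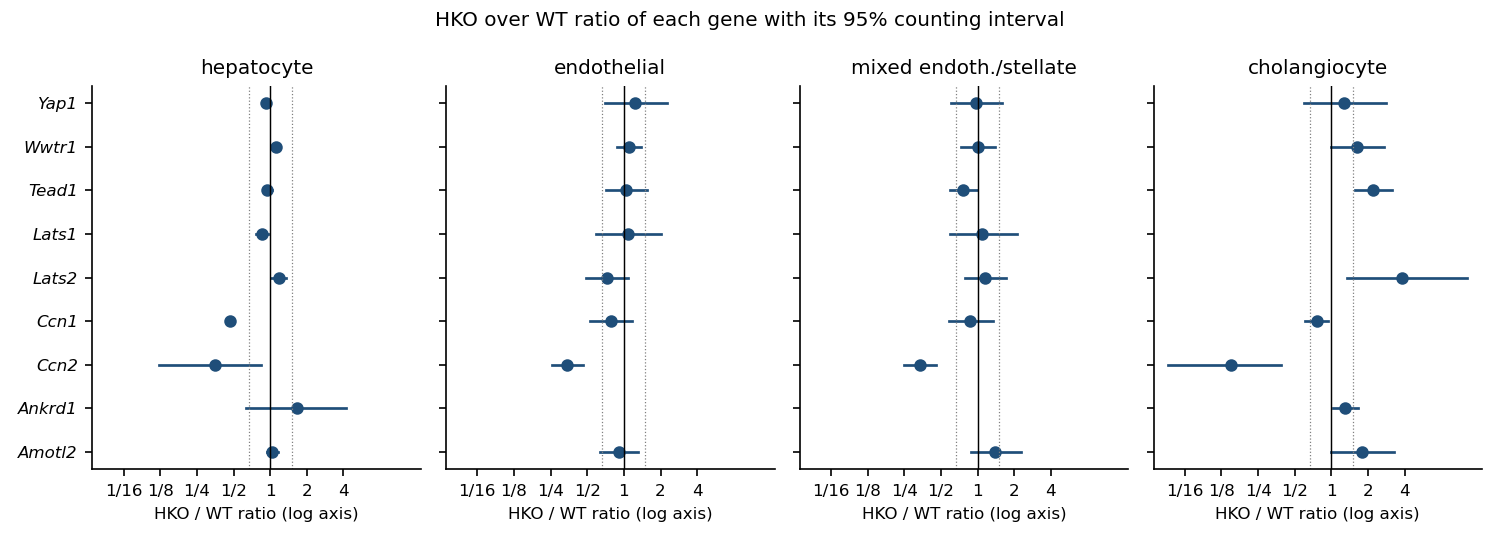
HKO over WT ratio of each gene (horizontal, log axis) in 4 classes, with 95% counting intervals as lines and dotted lines at 1.5-fold. Ccn2 lies left of the dotted line in each of the 4 panels, Ccn1 does so in hepatocyte-like barcodes only among these classes, and Yap1 and Wwtr1 lie close to 1 in hepatocyte-like barcodes; genes with fewer than 20 UMIs are left out.

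Stellate-like barcodes gave few counts of any member, next to a high level of Alb. Against hepatocyte-like barcodes, 2 of 8 members were at least 2-fold higher in WT, Ccn1 and Ccn2, beside 19.5% of genes, and 3 of 7 in HKO, Tead1, Lats2 and Amotl2, beside 18.7%. After free RNA was subtracted, Ccn1 in WT went from 2.5-fold to 1.71-fold and Tead1 in HKO from 2.02-fold to 1.56-fold, so both were then under 2-fold. Ccn1 had 46 and 19 UMIs, or 252 and 78.0 CPM (ratio 0.309, 0.171 to 0.538), of which 25 WT UMIs lay in 1 barcode. Ccn2 had 18 and 2 UMIs, 13 of the 18 in 1 barcode. Tead1 had 71.4 and 78.0 CPM and Wwtr1 60.4 and 45.2 CPM, each from 11 to 19 UMIs. Between the libraries, 2 of 6 members were at least 1.5-fold lower in HKO, Ccn1 and Ccn2, beside 20.5% of 3316 genes, and 2 were higher, Yap1 and Amotl2, beside 16.2%. The ratio of Amotl2, 4.49, was 0.825 after thinning to 1000 UMIs. The sum of 13 macrophage markers in stellate-like barcodes was 1938 CPM in WT and 390 CPM in HKO (2 and 3 of them at 0), and its part in these ratios was not tested. In the barcodes that passed a count of stellate markers in place of clusters, 23 in WT and 29 in HKO, the Ccn2 ratio was 1.22, so its direction depended on how the barcodes were chosen.

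The barcodes with endothelial and stellate markers together were deeper and counted better, with Alb at 6614 and 2539 CPM. Tead1 had 251 and 192 CPM there (ratio 0.765, 0.598 to 0.983), which is 6.16-fold and 4.97-fold the hepatocyte level. Wwtr1 had 139 CPM in both libraries (ratio 1.00, 0.729 to 1.39), and Yap1 had 65.8 and 63.9 CPM. Ccn2 had 94 and 84 UMIs, or 238 and 80.1 CPM (ratio 0.337, 0.248 to 0.457). Of 8 members it was the only one at least 1.5-fold lower in HKO, beside 14.8% of 8751 genes, and 0 were higher, beside 15.9%. Ccn1 had 88.6 and 77.2 CPM (ratio 0.872, 0.580 to 1.34).

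Cholangiocyte-like barcodes, the biliary cells, had the highest levels of Ankrd1, Ccn1 and Tead1 among named classes, although in WT Tead1 was higher in the mixed endothelial and stellate barcodes. Ankrd1 had 135 UMIs in WT and 167 in HKO, or 505 and 656 CPM (ratio 1.3, 1.03 to 1.64), and this class of 13 and 27 barcodes held 79.4% and 93.3% of its UMIs in kept barcodes. Ankrd1 led the list of genes that set the cluster apart although it was not used for clustering. Its highest barcodes held 52 and 37 UMIs, and without them the ratio was 1.70, while weighting each barcode equally gave 0.997. Over 9 alternatives it ranged from 0.917 after thinning to 1000 UMIs to 21.4 with the count of markers described below, so its direction is not settled by these barcodes. Ccn1 had 782 and 593 CPM (ratio 0.759, 0.612 to 0.940), with 79 of 209 WT UMIs in 1 barcode, and 0.908 without the highest barcodes, 1.06 after thinning to 1000 UMIs and 1.09 with the count of markers described below. Tead1 had 183 and 405 CPM (ratio 2.21, 1.56 to 3.17) and Wwtr1 108 and 177 CPM (ratio 1.63, 1.00 to 2.70).

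Against hepatocyte-like barcodes, 6 of 9 members were at least 2-fold higher in cholangiocyte-like barcodes in WT, beside 28% of genes, and 6 of 8 in HKO, beside 40.7%. Between the libraries, 4 of 8 members were at least 1.5-fold higher in HKO, Wwtr1, Tead1, Lats2 and Amotl2, beside 33.5% of 4680 genes, and 1 was lower, Ccn2, beside 17.3%. Markers of other cells differed between the libraries in the same barcodes, with a sum over 10 hepatocyte markers of 44698 CPM in WT and 13338 CPM in HKO, over 12 endothelial markers of 258 and 1151 CPM (1 and 0 of them at 0) and over the 9 cholangiocyte markers of 10203 and 14564 CPM. Their part in the ratios of the members was not tested. The median log2 ratio of all genes in this class was 0.27, and that of the members 0.54, so part of each higher ratio is shared by genes at large. Ccn2 had 35 and 5 UMIs, and 26 of the 35 lay in 1 WT barcode. In the 80 WT and 37 HKO barcodes that passed a count of cholangiocyte markers, the Ccn2 ratio was 5.64, that of Wwtr1 0.817, that of Amotl2 0.705 and that of Lats2 1.09 in place of 3.78, and after thinning to 1000 UMIs that of Tead1 was 1.13, so none of these 5 calls holds under each alternative.

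In macrophage-like barcodes Lats2 stood out among the members, with 7 UMIs in WT and 48 in HKO, or 16.2 and 44.0 CPM (ratio 2.71, 1.22 to 7.1). It was the only one of 4 members with at least 20 UMIs that was at least 1.5-fold higher, beside 18.3% of 7900 genes. Wwtr1 and Ccn2 were at least 1.5-fold lower, beside 13.8% of genes. Ccn2 had 21 UMIs in WT and 0 in HKO, and 20 of the 21 lay in 1 barcode. In barcodes that passed a count of macrophage markers the Lats2 ratio was 0.812. Yap1 and Tead1 were scarcely read in macrophage-like barcodes, with 1 and 7 UMIs of Yap1 and 3 and 3 of Tead1, and their levels lay below those of hepatocyte-like barcodes beyond counting error in both libraries.

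Across named and mixed classes with at least 20 UMIs of a gene, Ccn1 and Ccn2 had the same direction in every class, as did Ankrd1, which had only 2 such classes. Ccn2 was lower in HKO in 8 of 8 classes, each by at least 1.5-fold and with an interval below 1, although in stellate-like, cholangiocyte-like and macrophage-like barcodes most WT UMIs lay in 1 barcode and the first 2 of these turned with the count of markers. Ccn1 was lower in 8 of 8 classes, 5 of them by at least 1.5-fold and 6 with an interval below 1. Both of these counts include T and NK-like barcodes (56 and 27 UMIs), read above as background, and monocyte and dendritic-like barcodes (17 and 7 UMIs). Lats2 was higher in 7 of 9 classes and Lats1 in 6 of 7. Yap1 was higher in 3 and lower in 3, Wwtr1 higher in 5 and lower in 4, and Tead1 higher in 4 and lower in 3. The classes of a library share its free RNA, so they do not count as independent. Barcodes of free RNA depth had 77.9 and 42.8 CPM of Ccn1 (ratio 0.550), which moves with its level in hepatocytes, and its part in the small non-hepatocyte counts of Ccn1 was not tested beyond the subtraction by Alb. After that subtraction the Ccn1 ratio in endothelial-like barcodes was 0.940.

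**Figure D4:**
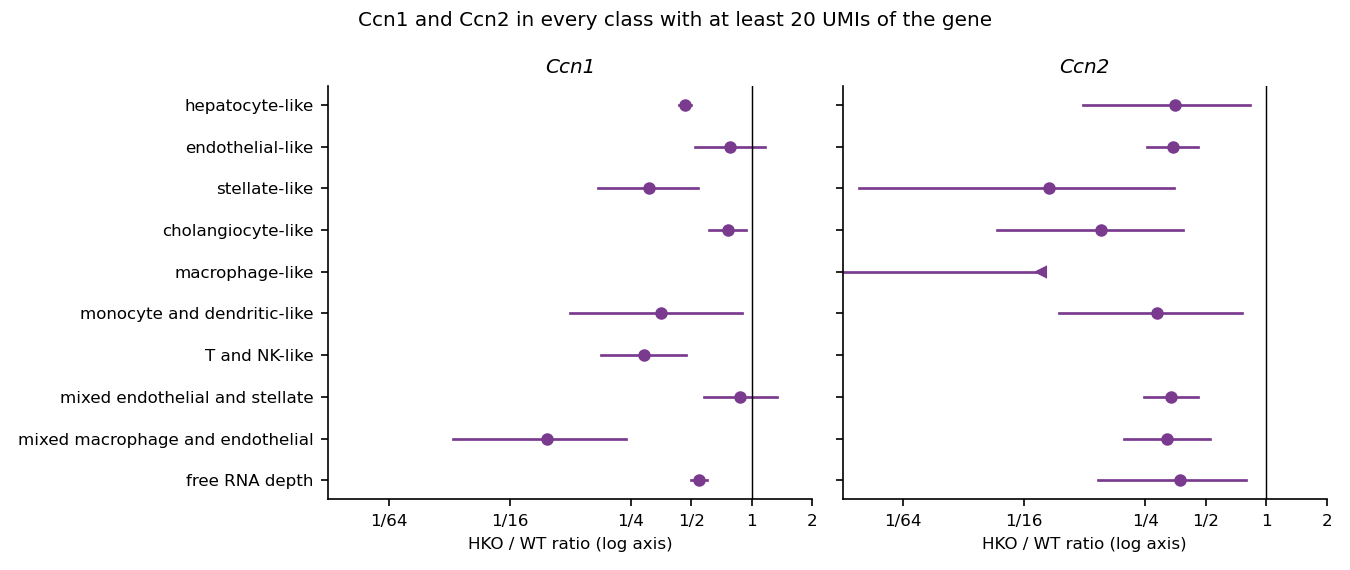
HKO over WT ratio (horizontal, log axis) of Ccn1 and Ccn2 in each named or mixed class, and in barcodes of free RNA depth, with at least 20 UMIs of the gene, with 95% counting intervals. Each point lies left of 1; the triangle marks macrophage-like barcodes, where Ccn2 had 0 UMIs in HKO and only the upper end of the interval is shown.

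The whole libraries did not show the lower Ccn2. Over all barcodes it had 575 UMIs in WT and 221 in HKO, or 4.41 and 4.20 CPM (ratio 0.954, 0.813 to 1.12). Endothelial-like barcodes made up 0.394% of kept UMIs in WT and 1.31% in HKO, and the mixed endothelial and stellate barcodes 0.315% and 2.26%. The 15 classes with barcodes in both libraries leave out 2168 HKO barcodes of a depth between free RNA and hepatocyte-like barcodes, which held 12.3% of kept HKO UMIs and had no WT counterpart. With the HKO levels of the 15 classes weighted by the WT makeup, Ccn2 would stand at 1.51 CPM against 4.50 CPM in WT, a ratio of 0.335, in place of 1.19 with each library's own makeup. Own makeup also gave higher ratios for other members. Lats2 was 1.59-fold higher in HKO over the whole library, and its ratio over the 15 classes was 1.81 as measured and 1.13 at the WT makeup. For Ankrd1 these ratios were 3.25 and 1.20, and for Wwtr1 1.32 and 1.11. For Ccn1 they were 0.526 and 0.513. Differences of makeup inside a class, such as the cluster marked by Tsku and C4b, do not enter these ratios.

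Other genes of the pathway were read from lists of upstream kinases and scaffolds, junction proteins, other TEAD factors with their VGLL cofactors, and target genes. In hepatocyte-like barcodes 13 of 13 upstream genes had at least 20 UMIs, and 8 were higher and 5 lower in HKO, with 0 past 1.5-fold, beside 8.43% of all genes higher and 9.02% lower, and a median log2 ratio of 0.08, beside -0.00 for all genes. Taok3, a kinase that acts above the Hippo kinases, had 105 and 144 CPM (ratio 1.37, 1.31 to 1.43). The scaffolds Wwc1 and Wwc2 had ratios of 1.31 (1.25 to 1.38) and 1.39 (1.24 to 1.55), while Taok2 had 0.802, Sav1, the partner of the Hippo kinases, 0.864 and Frmd6 0.912. Of 6 junction genes measured, 4 were higher and 2 lower, and Amotl1, from 37 and 24 UMIs, was the only one past 1.5-fold (ratio 1.56, 0.892 to 2.67), beside the same 8.43% of genes. Limd1 had a ratio of 1.25, Dlg5 1.24, Ajuba 1.19, Amot 0.972 and the cadherin Fat1 0.829. Tead3 was lower, with 6.52 and 4.88 CPM (ratio 0.749, 0.594 to 0.939), and the cofactor Vgll4 had a ratio of 1.02. Ihh, a target of TAZ in hepatocytes, had 47 and 18 UMIs (ratio 0.920, 0.503 to 1.61).

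The target genes did not move as a group in hepatocyte-like barcodes. Of 16 measured, 5 of which are members, 9 were higher and 7 lower, 3 and 4 of them past 1.5-fold beside 8.43% and 9.02% of all genes, with a median log2 ratio of 0.14 beside -0.00 for all genes. Nuak2, a kinase induced by YAP, had 4.56 and 7.90 CPM (ratio 1.73, 1.41 to 2.12), Rbms3 had 1.34 and Crim1 1.23. F3, which encodes tissue factor, had 3.35 and 1.96 CPM (ratio 0.586, 0.406 to 0.829) and Gadd45b 0.733. The median turned to -0.26 without the highest barcode of each gene. Ccn1 is also an immediate early gene, one of those that respond within minutes to stimuli and to tissue dissociation. Of 18 measured immediate early and dissociation genes, 14 were lower and 4 higher in HKO hepatocyte-like barcodes, 6 and 1 of them past 1.5-fold beside 9.02% and 8.43% of all genes, with a median log2 ratio of -0.49. Zfp36 had 498 and 251 CPM (ratio 0.504), Nr4a1 53.0 and 27.2 CPM (ratio 0.512) and Dusp1 268 and 142 CPM (ratio 0.530), close to the 0.466 of Ccn1. Egr1, with 354 and 366 CPM (ratio 1.04), Fosb (ratio 1.11) and Ier3 (ratio 1.76) were not lower. Handling of the pools and genotype cannot be told apart here, and the part of dissociation in the Ccn1 level was not tested.

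**Figure D5:**
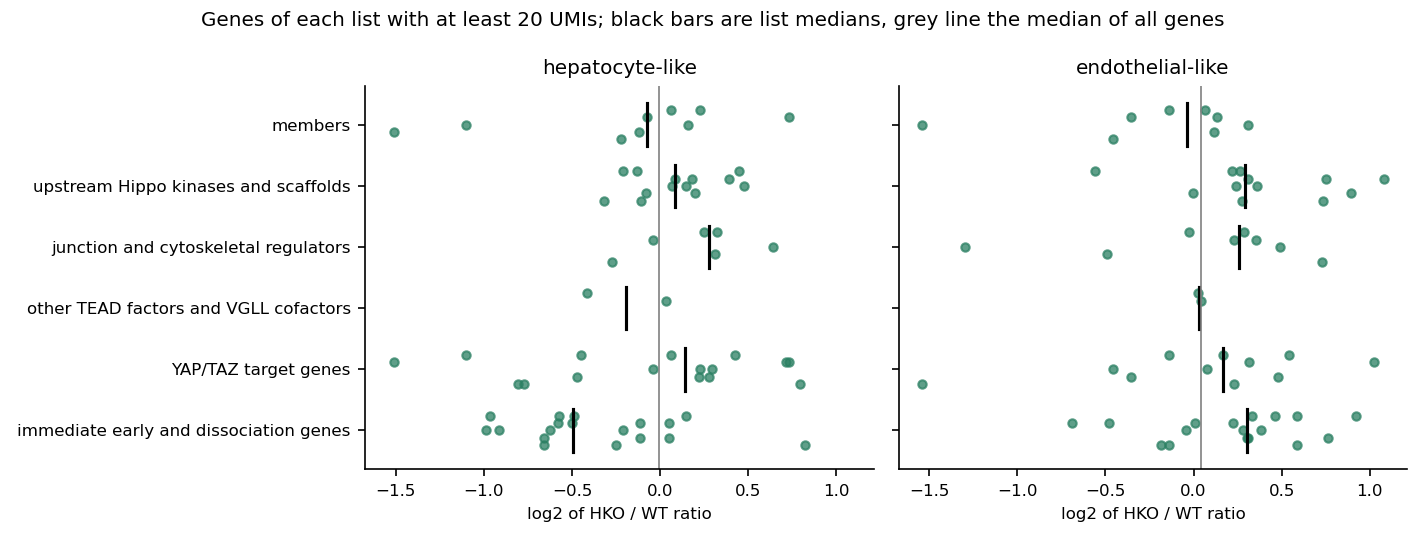
log2 of the HKO over WT ratio of each gene with at least 20 UMIs, by list, in hepatocyte-like (left) and endothelial-like (right) barcodes; black bars are list medians and the grey line is the median of all genes. The immediate early genes have a median of -0.49 in hepatocyte-like and 0.31 in endothelial-like barcodes, and the leftmost member in each panel is Ccn2.

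In endothelial-like barcodes 10 of 12 upstream genes were higher and 2 lower in HKO, 4 and 0 of them past 1.5-fold, with a median log2 ratio of 0.29, beside 14.9% and 16.1% of all 7398 genes and a median of 0.04. Wwc2 had 138 and 232 CPM (ratio 1.69, 1.25 to 2.29) and Taok3 91.1 and 152 CPM (ratio 1.66, 1.15 to 2.43). Mob1b, a cofactor of the LATS kinases, had a ratio of 1.28, Taok1 1.18, the Hippo kinase Stk3 1.16 and Taok2 0.997. Of 8 junction genes 5 were higher and 3 lower, 1 and 1 of them past 1.5-fold, among them Fat4 (ratio 1.66, 0.999 to 2.83), Amotl1 (1.28), Ptpn14 (1.17) and Limd1 (0.981). Vgll4 had a ratio of 1.03. Of 11 target genes 7 were higher and 4 lower, with a median of 0.17, and 1 was past 1.5-fold on each side, Ccn2 on the lower, beside the same 14.9% and 16.1% of genes. Rbms3 had a ratio of 1.46 and Asap1 1.24. Of 17 immediate early genes 12 were higher and 5 lower, with Fosb at 1.90, Klf6 at 1.70, Fos at 1.5, Ier5 at 0.879, Btg2 at 0.716 and Zfp36 at 0.620. Their median log2 ratio was 0.31.

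Likeness of pattern was described by Pearson's r of log2(CPM + 1) over 18 columns, 8 classes of WT and 10 of HKO with at least 20 barcodes, for 10035 genes. These columns share 2 libraries and their free RNA, so r describes a pattern and has no test. Ccn2 was most like Lyve1, Col4a2 and Clec14a (r from 0.897 to 0.902), of which Lyve1 is a marker of sinusoidal endothelium. Wwtr1 was most like Tjp1, Arhgef12 and Meis2 (r from 0.938 to 0.949), and Amotl2 most like Nr2f2 (0.922). Tead1 was most like Kalrn (0.941), Lats2 like Ice1 (0.955), Lats1 like L3mbtl3 (0.898), Yap1 like Fam149a (0.908) and Ccn1 like Ermp1 (0.918). Between members the highest r values were those of Wwtr1 with Ccn1 (0.776) and of Lats1 with Lats2 (0.767).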

How the data were processed

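UMI counts per gene and barcode were deposited by the authors without normalization. The matrix header names Cell Ranger 7.1.0, and the submitters' processing notes name mm10, Seurat 3 and R 3.0. Intron counting and the choice of barcodes are not given in the sources used here. Depth was 130451427 UMIs in WT and 52563185 in HKO, from 1 library per genotype.

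Barcodes with at least 500 UMIs, 300 genes and at most 50% mitochondrial UMIs were kept. They were clustered (scanpy 1.11.5, igraph 0.11.9, 2000 variable genes, 30 principal components, 15 neighbours, Leiden resolution 1.0, then 2.0) without the members, the other listed pathway genes and mitochondrial genes. A class needed at least 3 markers, each in at least 10% of barcodes and 2-fold above the rest. Barcodes of clusters without other markers were called hepatocyte-like from 5000 UMIs on in both libraries, and of free RNA depth below 2 times the commonest depth of their library (2570 and 813 UMIs). In WT the second limit is 5141 UMIs, so WT barcodes from 5000 to below 5141 UMIs are in both classes. They are counted in both for shares of kept UMIs and for the WT makeup. Scrublet called 0 doublets, so none were left out; an alternative left out the 7019 WT and 2664 HKO barcodes with the highest scores.

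UMIs were summed by class and library and divided by the class total (CPM). Ratios have exact conditional intervals, CPM exact Poisson and shares Clopper-Pearson intervals, at 95%. Genes needed 20 UMIs over both libraries to be counted, 50 to be named from a list (the 3 highest and 3 lowest ratios of each list) and 200 in each library for likeness, which Ankrd1 (181 and 184) did not reach. Zero counts entered list medians as 3 counts. On simulated counts the intervals held the true ratio at the set rate. The CPM and ratio intervals treat UMIs as independent, and their rate for UMIs that gather in few barcodes was not tested. The members, lists and markers were chosen with earlier results of these data known. Promoters and miRNA are from RefSeq tables.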

Additional observations from a re-analysis of the deposited data

How the results depend on the processing

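Under other settings 614 values were recomputed, of which 494 stayed within 1 counting interval or 1.5 times the count, 104 moved and 16 changed the direction of a ratio past 1.5-fold. The Ccn1 ratio in hepatocyte-like barcodes lay between 0.398 and 0.558 in all 13 alternatives. In the depth ranges above, which are not among these, it lay between 0.437 and 0.590. The number of members at least 1.5-fold higher in hepatocyte-like barcodes, 1, was 0 after thinning to 1000 UMIs, without the highest barcode, at 20% mitochondrial UMIs, at 2 times the commonest depth, without a depth minimum, at 100 UMIs and within each of 3 clusters; the number lower, 2, was 1 after thinning, at 100 UMIs and within the Neat1 and A2ml1 clusters. In the Gsta1 cluster (an alternative chosen after seeing the data) the median log2 ratio of the members was -0.65. There Yap1 (0.415), Tead1 (0.534, from 15 and 9 UMIs) and Ccn1 (0.398) were at least 1.5-fold lower in HKO. In endothelial-like barcodes that median was 0.37 after thinning, and 1 member was higher after free RNA was subtracted, and 1 higher and 2 lower with classes from a gate on marker counts. The target gene median in hepatocyte-like barcodes ranged from -0.58 in the Gsta1 cluster to 0.35 in the Neat1 cluster, and it was also negative in the A2ml1 cluster (-0.03) and without the highest barcode (-0.26), while in endothelial-like barcodes it reached 0.61 with the gate. Ratios nearer to 1 also crossed it, 24 of them in 39 values, among them Yap1 (1.12) and Amotl2 (0.867) within the Neat1 cluster, Tead1 within the A2ml1 cluster (1.09) and Wwtr1 within the Gsta1 cluster (0.763) in hepatocyte-like barcodes, Lats2 after thinning (2.00) and Yap1 with the gate (0.661) in endothelial-like barcodes, and Ccn1 after thinning (1.06) and with the gate (1.09) and Ankrd1 after thinning (0.917) in cholangiocyte-like barcodes. Ratios past 1.5-fold that changed direction were, in hepatocyte-like barcodes, Ankrd1 without the highest barcode (0.437) and without a depth minimum (0.935). With the gate they were Ccn2 in stellate-like (1.22) and cholangiocyte-like (5.64), Wwtr1 (0.817) and Amotl2 (0.705) in cholangiocyte-like, Lats2 in macrophage-like (0.812), and Yap1 (1.13) and Amotl2 (2.59) in T and NK-like barcodes. After thinning they were Amotl2 in stellate-like (0.825), Wwtr1 in cholangiocyte-like (1, no difference) and Yap1 in T and NK-like barcodes (2.31). With barcodes weighted equally they were Wwtr1 (0.719) and Amotl2 (0.723) in cholangiocyte-like barcodes. After free RNA was subtracted, Wwtr1 in WT (0.905) and Ccn1 in HKO (0.983) no longer lay above hepatocyte-like barcodes in stellate-like ones. The causes were not tested. The few UMIs of small classes leave wide counting intervals. No paired analysis was possible because each genotype has 1 library.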
